A study of Homo sapiens with 6 samples.

Results

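The genes described here are 9 genes of the MHC class I antigen presentation pathway, HLA-B, HLA-C, HLA-E, HLA-F, B2M, TAP1, TAP2, TAPBP and NLRC5. They were chosen by name, as the rows of the gene count table that carry these symbols, with earlier results of these data known. All 9 were found among the 40173 genes of that table and passed the filter on low counts. RNA-Seq was performed on the human lung adenocarcinoma line A549, whose cells had been transfected with an siRNA against the long noncoding RNA FAM83H-AS1 (the silenced group, n = 3 libraries) or with a negative control (the control group, n = 3 libraries) and harvested a day later. All cells were thus transfected, and which of the study's siRNAs against FAM83H-AS1 was sequenced is not given in the sources used here. The comparison asks how the mRNA profile changes after silencing. Because the labels do not say whether replicates were separate cultures, the p-values measure the spread between these libraries, which may be technical.

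MHC class I molecules display peptides from inside the cell to cytotoxic T cells. A heavy chain, encoded by an HLA gene, folds with beta-2-microglobulin (B2M) in the endoplasmic reticulum, where peptides arrive through the transporter made of TAP1 and TAP2, and tapasin (TAPBP) holds the empty heavy chain at that transporter until a peptide binds. NLRC5 is the transactivator of class I genes and acts with RFX, CREB/ATF and NF-Y factors at their promoters. Interferons raise the transcription of most of these genes through STAT and IRF factors, of which the latter bind interferon-stimulated response elements. Tumor cells often lower this pathway.

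Library totals ranged from 9738291 to 17742643 counts, and the 9 genes held between 14948 and 25314 of them. FAM83H-AS1 had 141, 185 and 292 counts in control and 47, 48 and 75 in silenced libraries, so that its level fell to 30.6% of the control (log2 fold change -1.70, adjusted p = 7.99e-05 by edgeR). The keratins KRT7, KRT8 and KRT18 were high in every library, while EPCAM and CDH1, further epithelial markers, averaged 3.86 and 0.780 CPM in the control cells (counts scaled to a common TMM-normalized library size, the unit of all levels below). The summed level of the 6 epithelial markers was 4430 to 4730 CPM in the control libraries and 3530 to 3570 CPM in the silenced libraries. Of them, KRT7 (log2 fold change -0.57, adjusted p = 0.00116) and KRT18 (-0.43, adjusted p = 0.00266 by edgeR) were called lower, and the others were not called. Of 8 leukocyte markers, CD3E, MS4A1 and NKG7 had 0 counts in all libraries and PTPRC had at most 1 count in a library. Their sum was 2.94 to 2.98 CPM in the control libraries and 5.95 to 6.84 CPM in the silenced libraries, most of it from ITGAX. ITGAX, alone among them in having enough counts to be tested, was called higher (log2 fold change 1.11, adjusted p = 0.00502 by edgeR). The sums were 4.42 to 6.39 and 3.79 to 4.16 CPM for 3 endothelial markers, none of them at 0 in every library, and 29.3 to 34.6 and 34.0 to 41.7 CPM for 4 fibroblast markers, most of it from COL1A1. The part of these shifts in the results below was not tested. In such bulk RNA, fewer cells that express a gene and less RNA per cell cannot be told apart.

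The promoters are shown because the class I genes share regulatory sequences, and because the genes called higher below differ in whether they carry an exact response element. RefSeq sequences on GRCh38.p14 were available here for 7 of the 9 genes, with no entry used for HLA-E and NLRC5. Stretches that end 41 bases before the RefSeq start site are printed 5′ to 3′ on the strand of the gene, with capitals for matches to GAAANNGAAA, the core of an interferon-stimulated response element, or to CCAAT, the core of a Y box, on either strand.

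HLA-F (chr6:29723224-29723393, plus strand): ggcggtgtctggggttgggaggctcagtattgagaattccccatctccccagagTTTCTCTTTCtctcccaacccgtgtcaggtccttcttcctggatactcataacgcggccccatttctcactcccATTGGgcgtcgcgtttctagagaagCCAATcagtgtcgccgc

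HLA-B (chr6:31357220-31357389, minus strand): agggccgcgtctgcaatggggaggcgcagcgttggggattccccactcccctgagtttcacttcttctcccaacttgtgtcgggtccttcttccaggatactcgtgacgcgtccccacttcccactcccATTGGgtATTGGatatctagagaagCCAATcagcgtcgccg

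B2M (chr15:44711307-44711476, plus strand): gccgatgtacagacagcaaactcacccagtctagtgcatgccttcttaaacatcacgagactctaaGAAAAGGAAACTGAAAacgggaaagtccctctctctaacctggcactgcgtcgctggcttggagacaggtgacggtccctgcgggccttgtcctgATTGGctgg

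TAP2 (chr6:32838780-32838949, minus strand): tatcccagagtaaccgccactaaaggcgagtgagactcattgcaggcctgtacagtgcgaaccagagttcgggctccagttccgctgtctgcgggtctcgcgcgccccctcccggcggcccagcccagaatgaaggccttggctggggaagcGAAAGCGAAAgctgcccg

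In the 250 bases before the start, GAAANNGAAA was found in HLA-F, B2M, TAP1, TAP2 and TAPBP, that is in 5 of 7 genes, compared with 3.02% of all 35116 promoter entries. HLA-B and HLA-C did not hold these exact letters, and inexact forms of the element were not searched for. A pair of overlapping matches formed an unbroken run in B2M, seen in the stretch above, and also in TAP1 and TAPBP, which were not called below and are printed here as 30 bases each.

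TAP1 (chr6:32853819-32853848, minus strand): aggcggccgcTTTCGATTTCGCTTTCccct

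TAPBP (chr6:33314079-33314108, minus strand): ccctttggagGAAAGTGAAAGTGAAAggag

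CCAAT was present in HLA-B, HLA-C, HLA-F, B2M and TAP1, compared with 32.0% of all entries. In HLA-B, HLA-C and HLA-F, a match in the gene's own direction began at 56, 56 and 57 bases before the start, with another on the opposite strand at 81, 80 and 82 bases. The general NF-kappaB site was found in HLA-B, HLA-C, B2M, TAP1 and TAPBP (9.96% of all entries), and the STAT site TTCNNNGAA only in the second of the 2 listed TAP1 promoters (6.57% of all entries). Such matches describe the letters and are not evidence of binding.

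Per kilobase of transcript, B2M was the most abundant of these mRNAs, with 480 ± 14.9 CPM per kilobase in the control cells (SD, n = 3). It was followed by HLA-C with 159 ± 15.1, HLA-B with 91.0 ± 3.0 and HLA-E with 59.2 ± 4.68 CPM per kilobase (SD, n = 3 each). The peptide loading genes were lower, with 41.2 ± 6.5 for TAPBP, 37.9 ± 0.617 for TAP1 and 25 ± 0.0544 CPM per kilobase for TAP2 (SD, n = 3 each). NLRC5, at 11.7 ± 0.687, and HLA-F, at 9.86 ± 1.48 CPM per kilobase (SD, n = 3 each), were the lowest. The libraries of neighbors in this order did not overlap, except for TAPBP with TAP1 and for NLRC5 with HLA-F. After silencing, HLA-F (15.9 ± 0.897 CPM per kilobase) lay above NLRC5 (12.5 ± 1.06 CPM per kilobase) in every library, and TAP1 (40.6 ± 0.125) likewise lay above TAPBP (37.7 ± 2.61) in every library (SD, n = 3 each), the closest pair being 40.5 and 40.1 CPM per kilobase. Lengths came from GENCODE transcripts, since the annotation behind the counts is not given in the sources used here. The transcript used for TAPBP had no RefSeq match. Without division by length, TAPBP lay above TAP1 after silencing, with means of 142 and 120 CPM. The order of genes thus depends on the lengths chosen, an uncertainty that the spread between libraries does not measure.

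**Figure D1:**
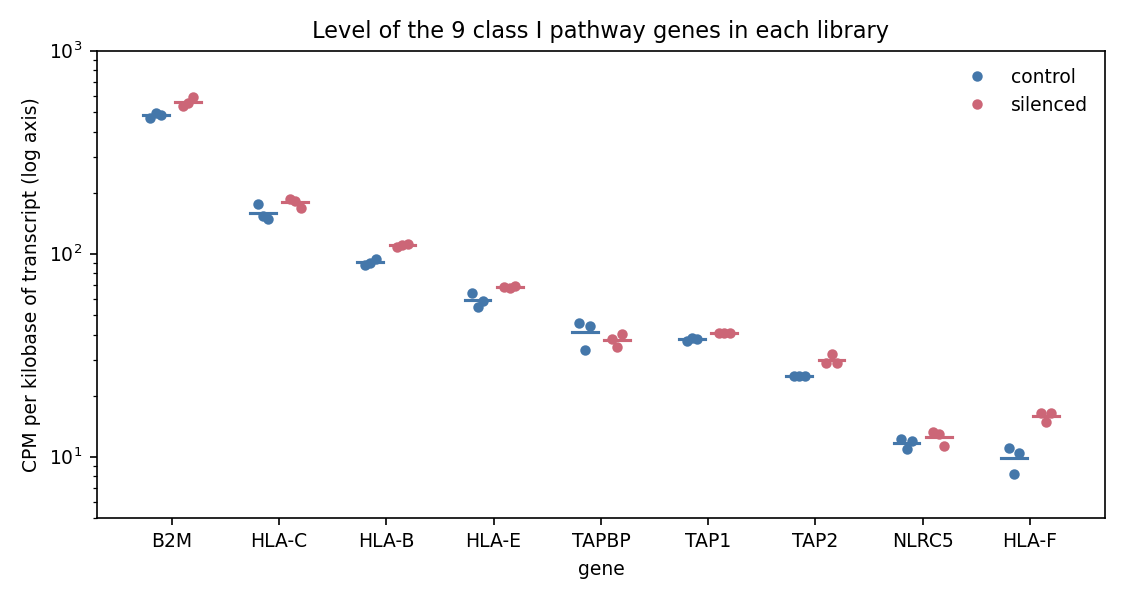
Level of each gene in CPM per kilobase of transcript (vertical axis, log scale) in the 3 control and 3 silenced libraries (points), with the group mean as a bar. B2M stands highest at 480 and 560 CPM per kilobase, and HLA-F moves from 9.86 to 15.9, from the lowest place to above NLRC5.

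After FAM83H-AS1 silencing, 4 of the 9 genes were called higher, HLA-F, HLA-B, TAP2 and B2M, and 0 were called lower (edgeR's quasi-likelihood test, adjusted p under 0.05 over all 15250 genes tested). For comparison, 8.75% of all genes tested were called higher and 8.27% lower. At an unadjusted p under 0.05, 5 of the 9 genes were higher and 0 lower, for which the share of all genes was not computed. DESeq2 called 4 of the 9 higher and 0 lower, compared with 1116 higher and 1226 lower of all 15327 genes it tested. The log2 fold change was above 0 for 8 of the 9 genes, with a median of 0.21 beside 0.00 for all genes tested. None of the 9 passed the fold change of 2 that the study's methods add, which 2.14% of all genes passed together with the adjusted p. All silenced libraries lay above all control libraries for 6 of the 9 genes (19.1% of all genes tested) and below them for 0 (17.5% of all genes tested). With any 1 of the 6 libraries left out, only 1 or 2 of the 9 genes were called. It was 1 without control replicate 2 or silenced replicate 1, and 2 without any of the others. Calls over all genes fell too, from 1334 higher to between 634 (without silenced replicate 1) and 1002 (without control replicate 3).

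**Figure D2:**
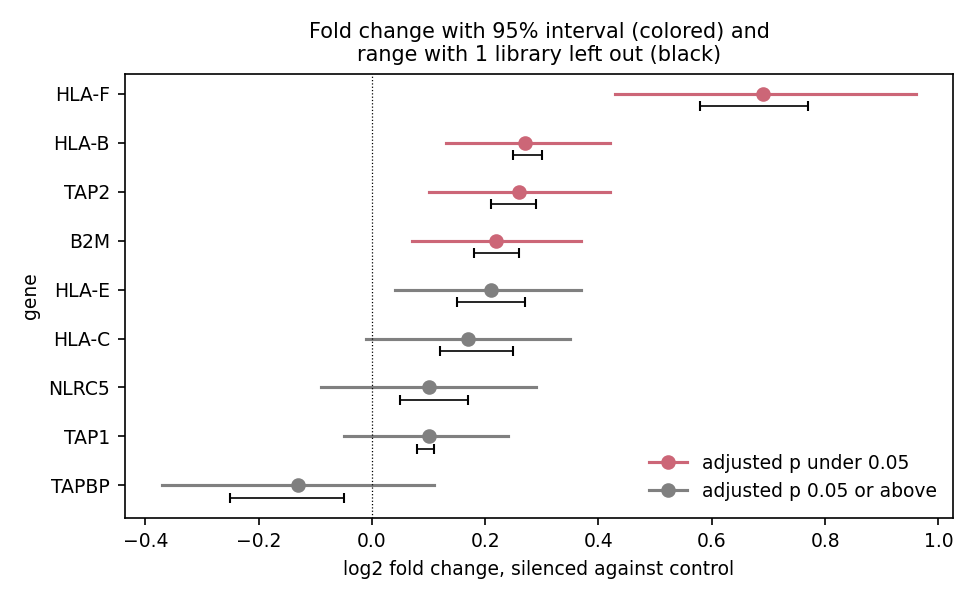
Log2 fold change of each gene, silenced against control (horizontal axis), with its 95% interval as a colored line and the range of values with 1 library left out in black. HLA-F lies apart at 0.69, HLA-B, TAP2 and B2M lie between 0.22 and 0.27, and TAPBP alone lies below 0, at -0.13.

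Among the heavy chains, HLA-F, a nonclassical class I gene with limited polymorphism, rose most. Its counts were 175, 155 and 287 in control and 276, 263 and 360 in silenced libraries, or 18, 13.4 and 17.0 against 27.0, 24.3 and 26.8 CPM. The groups did not overlap, and control replicate 2 was the lowest library. The mean rose from 16.1 ± 2.42 to 26 ± 1.47 CPM (SD, n = 3 each), and the log2 fold change was 0.69 ± 0.121 (SE, edgeR adjusted p = 0.00404). HLA-F was called with any library left out, with log2 fold changes from 0.58 to 0.77 and an adjusted p of at most 0.0235. Its antisense neighbor HLA-F-AS1, which overlaps it, had 32, 80 and 85 counts in control and 87, 58 and 97 in silenced libraries, with overlapping groups (adjusted p = 0.253 by edgeR). Where this pair shares bases, reads cannot be told apart without strand, the use of which is not stated. Overlap was taken between whole gene extents, and exons were not compared.

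HLA-B, a classical heavy chain gene, had 137, 140 and 146 CPM in the control libraries and 167, 171 and 173 CPM in the silenced libraries. Every silenced library was above every control library, with a narrow spread in both groups. The mean rose from 141 ± 4.65 to 170 ± 3.10 CPM (SD, n = 3 each), and the log2 fold change was 0.27 ± 0.0671 (SE, edgeR adjusted p = 0.0190). Leaving out control replicate 1 or 2 or silenced replicate 1 or 3 ended the call, with an adjusted p of at most 0.0661 and log2 fold changes from 0.25 to 0.30 over all 6 omissions. In GENCODE, HLA-B overlaps HLA-C, LINC02571 and several small RNA or pseudogene entries, among them WASF5P and AL671883.1, on its own strand, so that reads there cannot be assigned to 1 gene without further information.

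HLA-C and HLA-E did not pass the test. HLA-C, the other classical gene of the set, had 271, 235 and 228 CPM in the control libraries and 287, 279 and 257 CPM in the silenced libraries, so that control replicate 1 lay within the silenced range. Its log2 fold change was 0.17, with a 95% interval from -0.01 to 0.35 (adjusted p = 0.182 by edgeR). HLA-E, a nonclassical molecule that presents leader peptides of other heavy chains to NK cell receptors, had 167, 143 and 152 CPM in the control libraries and 178, 176 and 180 CPM in the silenced libraries. These groups did not overlap, and the log2 fold change was 0.21, with a 95% interval from 0.04 to 0.37 (adjusted p = 0.0810 by edgeR). Without control replicate 1, its highest control library, HLA-E was called at 0.27 (adjusted p = 0.0440 by edgeR), and over the 6 omissions its adjusted p went up to 0.245.

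B2M, the light chain that all of these heavy chains bind, had 438, 467 and 452 CPM in the control libraries and 503, 523 and 559 CPM in the silenced libraries. The groups did not overlap. The mean rose from 453 ± 14.1 to 528 ± 28.6 CPM (SD, n = 3 each), and the log2 fold change was 0.22 ± 0.0687 (SE, edgeR adjusted p = 0.0464). The call was close to the threshold and was lost with any library left out (adjusted p from 0.0793 to 0.147, log2 fold change from 0.18 to 0.26).

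The subunits of the peptide transporter differed in their values. TAP2 had 142 CPM in each control library and 164, 182 and 164 CPM in the silenced libraries, all above the control. Its mean rose from 142 ± 0.309 to 170 ± 10.6 CPM (SD, n = 3 each), and the log2 fold change was 0.26 ± 0.0714 (SE, edgeR adjusted p = 0.0308). TAP2 was called without silenced replicate 3 (adjusted p = 0.0484) but not with any of the other libraries left out (adjusted p up to 0.0918 by edgeR). TAP1 had 110, 114 and 112 CPM in the control libraries and 120 CPM in each silenced library. These groups did not overlap either, but the log2 fold change was 0.10, with a 95% interval from -0.05 to 0.24 (adjusted p = 0.348 by edgeR). GENCODE places part of TAP1 over PSMB9 on the other strand, and TAP2 over another annotated gene on its own strand, so that reads there cannot be assigned to 1 gene without further information. NLRC5 overlaps an antisense gene and a pseudogene on the other strand.

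**Figure D3:**
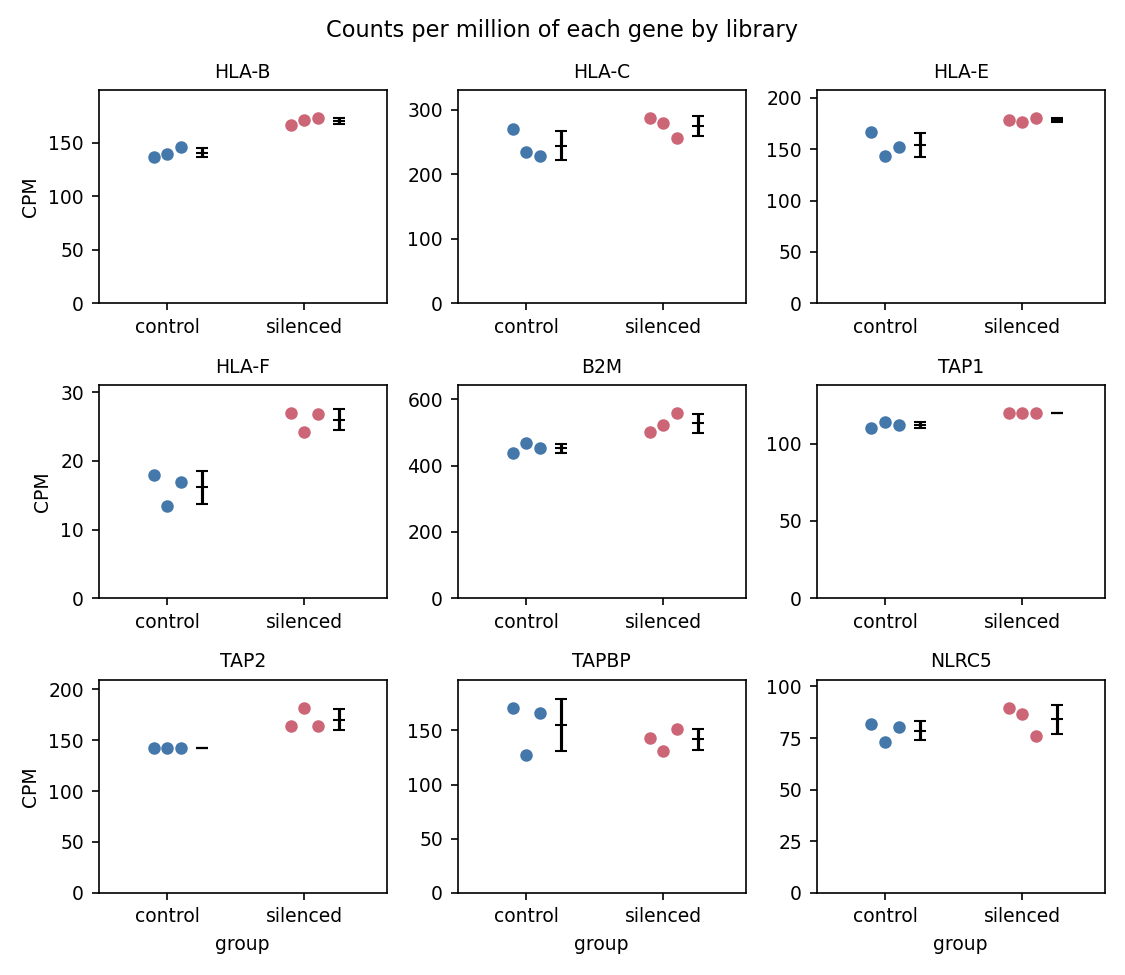
Level in CPM (vertical axis, from 0) of each gene in every control and silenced library (points), with the mean and SD of each group beside them (n = 3). HLA-F, HLA-B, HLA-E, B2M, TAP1 and TAP2 show silenced libraries above all control libraries, and HLA-C, TAPBP and NLRC5 overlap.

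TAPBP was the only one of the 9 genes with a log2 fold change below 0. Its level was 171, 127 and 166 CPM in the control libraries and 143, 131 and 151 CPM in the silenced libraries, so that control replicate 2 lay below and the other control libraries above all silenced ones. The log2 fold change was -0.13, with a 95% interval from -0.37 to 0.11 (adjusted p = 0.456 by edgeR), and it ranged from -0.25 to -0.05 over the 6 omissions. NLRC5 had 81.8, 73.2 and 80.5 CPM in the control libraries and 89.7, 86.6 and 76.2 CPM in the silenced libraries, with silenced replicate 3 inside the control range. Its log2 fold change was 0.10, with a 95% interval from -0.09 to 0.29 (adjusted p = 0.460 by edgeR). A difference in the mRNA of this transactivator was thus not detectable at this spread.

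Ratios between these genes within a library do not depend on its normalization. HLA-F took 2.52% to 3.13% of the summed counts of HLA-B, HLA-C, HLA-E and HLA-F in the control libraries and 3.74% to 4.20% in the silenced libraries, with no overlap (exact permutation test, two-sided, p = 0.1, the lowest that 3 libraries against 3 allow, and 0.2 when adjusted over 4 ratios). Counts of TAP1 per count of TAP2 were 0.774 to 0.803 in the control libraries and 0.656 to 0.734 in the silenced libraries, again apart (two-sided exact permutation test, p = 0.1, adjusted 0.2). B2M counts per summed count of HLA-B, HLA-C, HLA-E and HLA-F, which are not all the heavy chains, overlapped. They were 0.818 ± 0.0714 and 0.815 ± 0.0583 (SD, n = 3 each, exact permutation test, p = 0.9, adjusted 0.9). HLA-B counts per HLA-C count overlapped too, at 0.581 ± 0.0693 and 0.621 ± 0.0461 (SD, n = 3 each, exact permutation test, p = 0.5, adjusted 0.667). The HLA genes hold near-identical stretches, and how reads that match several of them were counted is not given in the sources used here, so their separate levels are uncertain. The 9 genes together held 0.143% to 0.153% of the counts of a control library and 0.170% to 0.173% of a silenced one.

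Other genes of the pathway and its regulators, 73 of which were tested, came from 11 lists. These lists were chosen by function, with earlier results of these data known. Among the 73 genes, 21 were called, 13 higher and 8 lower. Of all genes tested, 8.75% were called higher and 8.27% lower. With any library left out, 7 of the 21 were called (JAK1, STAT2, IRF1, MR1, MICB, RFXANK and ATF1). The share of all genes that stayed called in every omission was not computed. The class I pseudogene HLA-H, singled out after its values were seen as a close copy that could share reads, had 106, 102 and 82.0 CPM in the control libraries and 56.3, 67.4 and 86.7 CPM in the silenced libraries (log2 fold change -0.45, adjusted p = 0.0522 by edgeR).

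In the peptide supply, of the 6 genes for immunoproteasome subunits and the proteasome activator, 0 were called, 0 had an unadjusted p under 0.05 and DESeq2 called 0, with a median log2 fold change of 0.03. PSMB9, which lies head to head with TAP1, had 50 ± 1.40 CPM in the control and 51.4 ± 9.32 CPM in the silenced cells (SD, n = 3 each). Of the 3 constitutive catalytic subunits, PSMB6 (log2 fold change -0.23, adjusted p = 0.0497) and PSMB7 (-0.21, adjusted p = 0.0471 by edgeR) were called lower, though PSMB7 was lost with any library left out and PSMB6 was called only without silenced replicate 3. Of 6 cytosolic peptidases, THOP1 (-0.23, adjusted p = 0.0474) and BLMH (-0.27, adjusted p = 0.0344 by edgeR), which trim or destroy peptides before transport, were called lower. However, THOP1 was lost with any library left out and BLMH was called only without silenced replicate 2. Beside the edgeR counts of this paragraph, 8.75% of all genes tested were called higher and 8.27% lower. In the endoplasmic reticulum, 1 of 10 loading and quality control genes was called, HSPA5, a general chaperone. HSPA5 fell from 1100 ± 62.9 to 877 ± 49.6 CPM (SD, n = 3 each, log2 fold change -0.33, adjusted p = 0.0130 by edgeR). It was not called without silenced replicate 1 (adjusted p = 0.0715 by edgeR). The median log2 fold change of the 10 genes, however, was 0.20. At an unadjusted p under 0.05, 4 of them were higher and 3 lower, and DESeq2 called 3 higher and 2 lower.

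The interferon receptor and STAT genes were called higher in 5 of 10 cases and lower in 0 (8.75% and 8.27% of all genes tested). Their median log2 fold change was 0.40. JAK1, the kinase shared by these receptors, rose from 229 ± 30 to 315 ± 11.3 CPM (SD, n = 3 each, log2 fold change 0.46, adjusted p = 0.00834 by edgeR). The receptor chains IFNGR1 (0.55, adjusted p = 0.0142), IFNAR2 (0.44, adjusted p = 0.0148) and IFNAR1 (0.35, adjusted p = 0.0180 by edgeR), the last of which the naming rule did not cover, were each lost with a single omission, of control replicate 3, silenced replicate 1 and control replicate 2. STAT2, a signal transducer of type I interferon receptors, rose by 0.40 (adjusted p = 0.0157 by edgeR). Of 9 interferon genes, 0 had enough counts to be tested, and IFNB1 and IFNG had 0 counts in all libraries. Such zeros do not exclude a level too low to be sampled at this depth. Among 6 negative regulators, SOCS3, a feedback inhibitor of JAK kinases, was called higher (0.32, adjusted p = 0.0350 by edgeR), but only without silenced replicate 2 among the 6 omissions.

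Among 12 factors of class I promoters, IRF1, an activator that binds response elements such as those printed above, rose from 34.5 ± 1.92 to 48.7 ± 1.59 CPM (SD, n = 3 each), and the log2 fold change was 0.50 ± 0.0801 (SE, edgeR adjusted p = 0.00266). RFXANK, a subunit of the RFX complex through which NLRC5 reaches DNA, fell, from 71.4 ± 6.61 CPM to 30.1 ± 7.75 CPM (SD, n = 3 each), and the log2 fold change was -1.24 ± 0.149 (SE, edgeR adjusted p = 0.000546). ATF1, of the CREB/ATF family, fell, from 45.5 ± 1.75 CPM to 19.7 ± 3.31 CPM (SD, n = 3 each), and the log2 fold change was -1.21 ± 0.115 (SE, edgeR adjusted p = 0.000139). The other 9 factors were not called. Of all genes tested, 8.75% were called higher and 8.27% lower.

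Among 12 tested class I-like molecules, 3 were called higher and 1 lower (8.75% and 8.27% of all genes tested). MR1, which presents vitamin B metabolites to mucosal-associated invariant T cells, rose from 10.3 ± 0.629 to 15.7 ± 1.69 CPM (SD, n = 3 each, log2 fold change 0.61, adjusted p = 0.00918 by edgeR). RAET1E, an NKG2D ligand, rose from 1.77 ± 0.450 to 3.78 ± 0.258 CPM (log2 fold change 1.11, adjusted p = 0.0140), and PROCR, the endothelial protein C receptor, by 0.25 (adjusted p = 0.0382 by edgeR). RAET1E was lost without control replicate 2 and PROCR with any library left out. MICB, another NKG2D ligand, fell from 59.8 ± 3.21 to 40.2 ± 1.6 CPM (SD, n = 3 each, log2 fold change -0.58, adjusted p = 0.00106 by edgeR). Of 13 class II genes, 2 had enough counts to be tested and both were called higher (8.75% of all genes tested). CIITA passed the filter on low counts through the silenced libraries, where it was higher, so its direction was partly set by the filter. HLA-DOB, with means of 1.11 CPM in the control and 0.617 CPM in the silenced cells, did not pass it. CIITA, the class II transactivator and a relative of NLRC5, had 6, 10 and 23 counts in control and 32, 18 and 60 in silenced libraries (log2 fold change 1.64, adjusted p = 0.0190 by edgeR), and it was called only without control replicate 3 or silenced replicate 2. HLA-DMA, a class II peptide exchange factor, had a log2 fold change of 0.70 (adjusted p = 0.0230 by edgeR) and was called only without control replicate 3. HLA-DRB1 and HLA-DPA1 had 0 counts in all libraries, and CD74 at most 1 count in a library.

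**Figure D4:**
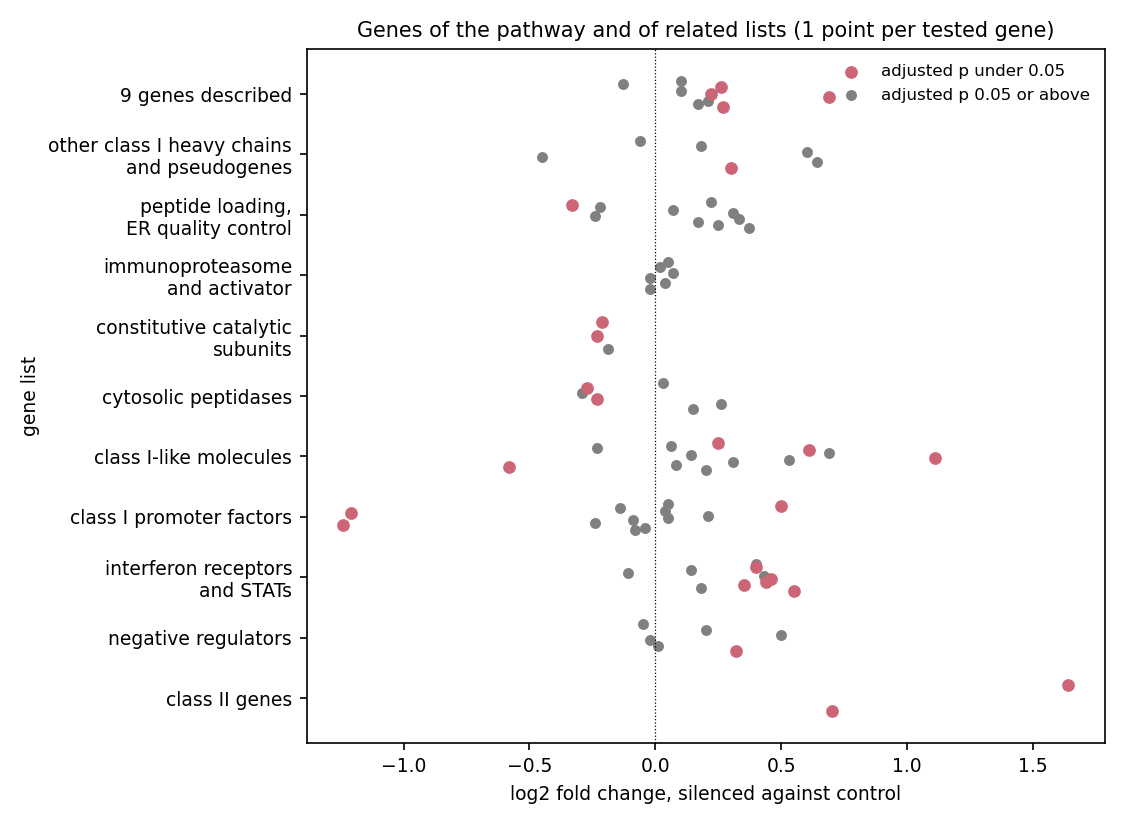
Log2 fold change, silenced against control (horizontal axis), of each tested gene (1 point) in the 9 genes described and in the other lists (vertical axis), colored where the adjusted p was under 0.05. The 6 immunoproteasome genes lie close to 0 (median 0.03), the interferon receptor and STAT genes mostly above it (median 0.40), and RFXANK and ATF1 at -1.24 and -1.21.

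The library profile of the 9 genes was compared with that of 12122 other genes of at least 50 counts per library on average. The mean log2 level of the 9 genes was 7.03, 6.89 and 6.99 in control and 7.19, 7.18 and 7.18 in silenced libraries, with control replicate 2 lowest. Most like it across the 6 libraries, by Pearson's r, were FAM83A (0.995), MB (0.991), TRNL1 (0.990), AGPAT1 (0.988) and ARHGEF10L (0.986), all with silenced libraries above all control libraries. With 6 points in 2 groups, these values mostly share the group difference and are given as a description. Among the 9 genes themselves, r with HLA-B was 0.964 for TAP1, 0.933 for B2M, 0.919 for TAP2 and 0.902 for HLA-F, 0.784 for HLA-E, 0.532 for HLA-C, 0.422 for NLRC5 and -0.34 for TAPBP over the same 6 libraries.

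**Figure D5:**
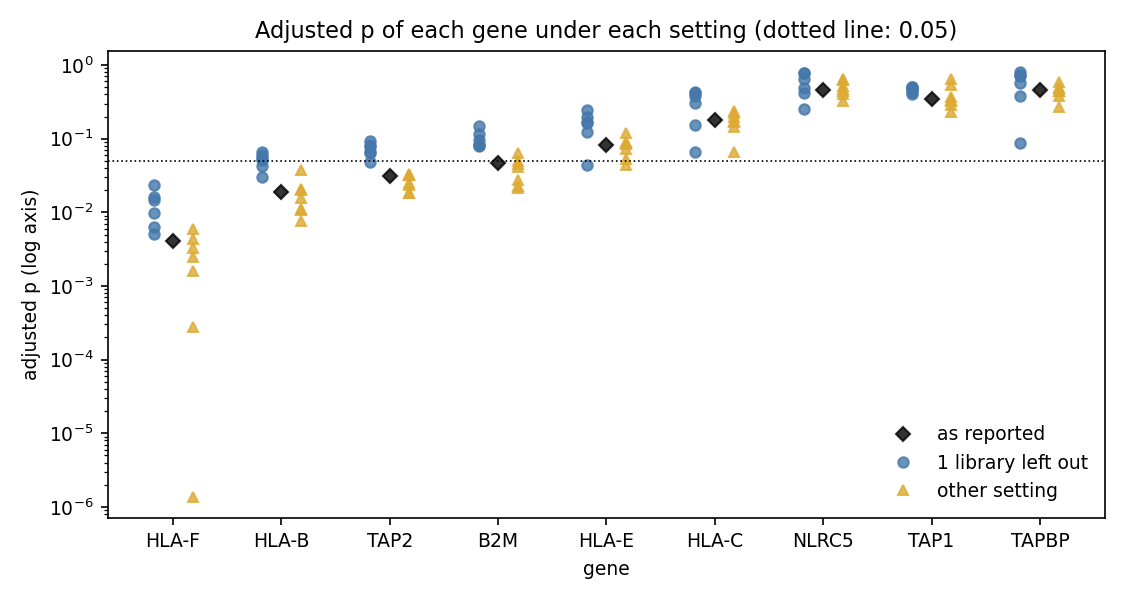
Adjusted p (vertical axis, log scale) of each gene as reported (diamonds), with 1 library left out (circles) and under the other settings (triangles), with the threshold of 0.05 as a dotted line. HLA-F stays below the line in each case, B2M lies above it in all 6 omissions, and HLA-C, NLRC5, TAP1 and TAPBP lie above it throughout.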

How the data were processed

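Total RNA of A549 cells went into libraries of an Ion Proton RNA-Seq kit. Reads per gene were counted by the authors with MapSplice. The submitters' processing notes name the build GRCh37. The deposited values are these whole counts, without normalization, in a table of 40173 symbols. Strand use and the treatment of multiple matches are not given in the sources used here. The authors' comparison with DESeq was not used.

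Here, edgeR 4.0.16 in R 4.3.3 was run on all genes: filterByExpr (15250 genes kept), TMM, the quasi-likelihood F test and Benjamini-Hochberg adjustment, with an adjusted p under 0.05 as a call. A standard error is the fold change's absolute log2 value divided by the root of F. Levels are CPM of the TMM-normalized library, per kilobase of the longest RefSeq-matched coding transcript in GENCODE 29 on GRCh38 (the longest coding one for TAPBP). Log2 levels for correlations used CPM + 0.5. Ratios were tested with scipy 1.17.1. Promoters, 250 bases before each RefSeq start, were matched by symbol. The fits were tested on simulated data.

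The 9 genes and the lists were chosen with earlier results of these data known. Named were the 9 genes, FAM83H-AS1, marker genes, at most 4 called genes per list by absolute log2 fold change, and the 5 genes most like the mean of the 9. PSMB9, HLA-F-AS1, HLA-H, HLA-DOB, IFNAR1 and the interferon and class II genes at or near 0 counts were named after their values were seen. Some genes of the lists are counted in the totals and not reported here. The alternatives were RLE factors, library size only, DESeq2 1.42.0, all genes with at least 1 count, a minimum of 10 counts per library, a replicate block, thinning to 9738291 counts, stricter calls, and each library left out.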

Additional observations from a re-analysis of the deposited data

How the results depend on the processing

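The log2 fold change of each of the 9 genes and of FAM83H-AS1 kept its sign under all 13 refits, and HLA-F and FAM83H-AS1 were called in all of them. The number of the 9 genes called higher was 0 with a fold change over 2 added, 1 at an adjusted p under 0.01, and 1 to 2 with 1 library left out, for which fewer samples were fitted. It was 3 among all genes with at least 1 count, where B2M was not called (adjusted p = 0.0634 by edgeR). The median log2 fold change of the 9 genes was 0.24 with library size only and 0.15 (without control replicate 2) to 0.25 (without control replicate 1) with 1 library left out, and the cause was not tested. The related genes called numbered 4 with a fold change over 2, 6 at an adjusted p under 0.01, and 10 (without silenced replicate 1) to 17 with 1 library left out. With the replicate number as a block, 5 of the 9 genes were called, with HLA-E added at 0.21 (adjusted p = 0.0435 by edgeR), and 29 related genes. The deviations of same-numbered libraries correlated at 0.14, 0.17 and 0.06 across genes, each library best with its own number. This is a weak hint from the data and not a stated pairing. For silenced replicate 3 the margin was small, 0.06 beside 0.04 with control replicate 1, and 3 libraries per group are too few to show a pairing. Over all genes the block called 1714 higher and 1735 lower, compared with 1334 and 1261 without it. Omitting silenced replicate 1 left 634 and 591. At 155 counts in its lowest library, HLA-F was the shallowest of the 9 genes.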
